A study of Mus musculus with 8 samples.

Results

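The transcription factors of naive pluripotency were followed in formative epiblast-like cells (EpiLCs), the state that mouse embryonic stem cells (ESCs) reach shortly after they leave the naive state. The set held 10 genes, *Nanog*, *Klf2*, *Klf4*, *Klf5*, *Esrrb*, *Tfcp2l1*, *Zfp42*, *Tbx3*, *Prdm14* and *Nr0b1*, each found once by its symbol among the 54281 genes of the RNA-seq tables. Of these, 9 had enough counts to be tested and *Prdm14* did not. The genes were chosen by name, as known factors of the naive state, by a rule that used no measured value. Earlier results of these data were known when they were chosen.

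The 4 lines KO25, KO15, KO9 and KO1 were *Tet1* KO, and the 4 lines WT34, WT17, WT12 and WT7 were WT. All 8 were male ESC lines derived from (B6 × 129S6)F1 blastocysts of the *Tet1* tm1Koh strain, so the groups shared strain and sex and differed in the *Tet1* allele. The study describes its KO and WT lines as littermate pairs, so that a KO and a WT line can share a litter, but which of these lines form a pair is not given in the sources used here. Every line had been adapted from feeder culture to 2iL, a medium with inhibitors of MEK (1 μM PD0325901) and GSK3β (3 μM CHIR99021) and with LIF (0.01 ng/ml), for at least 5 passages. Conversion took place on fibronectin in N2B27, to which 12 ng/ml bFGF and 1% KOSR but no Activin A had been added, and cells were collected on day 2. Each line gave 1 library of polyA RNA, so differences between lines, between cultures and between libraries all enter the spread. No library of the naive starting cells is used here, and levels on day 2 are therefore given without a level on day 0. The column names of the tables end in b2 (KO15, KO25, WT12 and WT34) or b1 (KO1, KO9, WT7 and WT17), and no source used here says what the suffix stands for. WT12 is the title of a library whose cell line field reads WT9, and WT17 that of a library whose field reads WT12. Both are WT under either name, and the titles are used below.

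Naive pluripotency is held by a network in which LIF, acting through STAT3, and inhibition of GSK3, acting through relief of the repressor TCF7L1, feed a set of mutually activating factors. KLF4, TBX3 and TFCP2L1 are among the known targets of these inputs. ESRRB and NANOG belong to the same network, and KLF2 and PRDM14 are known to be favoured by MEK inhibition. When both inhibitors and LIF are withdrawn the network is dismantled, OCT4 and SOX2 stay on, and formative genes such as *Otx2*, *Fgf5* and *Pou3f1* come on.

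Totals per library ran from 13916576 to 23680839 estimated counts, and the pairwise correlations of log2 CPM (counts scaled to library size) across genes from 0.951 to 0.980. *Tet1*, the targeted gene, had 38.4 to 54.2 CPM in KO lines, against 559 to 851 CPM in WT lines. It had 21.6 to 32.01 TPM in KO lines, against 60.5 to 91.5 TPM in WT lines. The ratio of CPM to TPM depends on the length of the transcripts to which reads were assigned. For *Tet1* this ratio varied 6.01-fold between lines, and the loss was smaller in TPM than in CPM. EpiLC markers were present, as *Dnmt3b* averaged 248 ± 19.2 TPM, *Otx2* 22.5 ± 6.06 TPM, *Pou3f1* 22.6 ± 9.74 TPM and *Fgf5* 11.6 ± 3.78 TPM over the 8 lines (SD). Of 12 fibroblast markers, chosen because the ESCs came from feeders, *Postn* and *S100a4* were at 0 in every line. The summed TPM of these markers was 6.35 to 18.6 in b2 and 20.97 to 32.4 in b1 libraries, most of it *Thy1*. The summed TPM of 12 primitive endoderm markers was 44.3 to 59.6 in KO and 32.5 to 34.3 in WT lines, most of it *Sparc* and *Col4a1*, while *Sox17* averaged 0.0814 TPM and *Gata6* 0.179 TPM. In bulk RNA, fewer cells that express a gene and less of its RNA per cell cannot be told apart.

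The sequence just before the transcription start is shown for 3 genes that come up repeatedly below, with CpG dinucleotides in capitals, because their starts differ widely in CpG content. Each run is the 250 bases before a RefSeq start in the GRCm38.p6 build, 5′ to 3′ in the direction of the gene. *Klf2*, on the plus strand at chr8:72318812-72319061, had 29 CpG in these bases, *Esrrb*, on the plus strand at chr12:86360867-86361116, had 6, and *Nanog*, on the plus strand at chr6:122707239-122707488, had 3.
Klf2: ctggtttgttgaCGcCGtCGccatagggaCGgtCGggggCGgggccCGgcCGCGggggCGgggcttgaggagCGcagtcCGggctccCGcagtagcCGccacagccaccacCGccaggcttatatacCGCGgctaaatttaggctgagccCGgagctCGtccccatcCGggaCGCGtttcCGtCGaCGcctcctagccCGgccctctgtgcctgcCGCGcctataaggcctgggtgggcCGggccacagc
Esrrb: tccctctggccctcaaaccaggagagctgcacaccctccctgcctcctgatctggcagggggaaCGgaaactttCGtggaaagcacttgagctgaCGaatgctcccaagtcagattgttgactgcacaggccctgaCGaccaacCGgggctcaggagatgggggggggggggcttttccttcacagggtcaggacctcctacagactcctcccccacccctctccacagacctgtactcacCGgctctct
Nanog: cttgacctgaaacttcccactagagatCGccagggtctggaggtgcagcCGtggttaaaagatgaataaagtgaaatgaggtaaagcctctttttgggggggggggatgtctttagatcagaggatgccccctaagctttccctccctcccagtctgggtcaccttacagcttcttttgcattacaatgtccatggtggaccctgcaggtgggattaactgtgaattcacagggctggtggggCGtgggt

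Windows of 300 bases, 250 before and 50 after the start, were matched for 7 of the 10 genes, giving 9 windows of 32851 in the table. CpG counts in these windows were 40 for *Klf4*, 32 for *Klf2*, 21 for *Tfcp2l1*, 14 for *Nr0b1*, 11 for *Zfp42*, 7 in both *Esrrb* windows and 4 in both *Nanog* windows. The median over all windows was 7, with quartiles of 3 and 20. *Klf2*, *Klf4* and *Tfcp2l1* were thus above the upper quartile, and no window fell below the lower one.

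A KLF motif, GGGNGTGG on either strand, was found in 4 of the 9 windows, against 17.6% of all windows. These were the windows of *Tfcp2l1* and *Zfp42* and the 2 overlapping *Nanog* windows, which held the same 2 matches. The 2 genes outside *Nanog* are shown with each match in capitals. *Tfcp2l1*, on the plus strand at chr1:118627695-118627944, held 2 copies, beginning 61 and 47 bases before the start. *Zfp42*, on the minus strand at chr8:43307010-43307259, held 1 copy beginning 75 bases before the start, and beginning at 186 bases also the octamer ATTTGCAT, the motif of POU factors such as OCT4, which 1.74% of all windows held.
Tfcp2l1: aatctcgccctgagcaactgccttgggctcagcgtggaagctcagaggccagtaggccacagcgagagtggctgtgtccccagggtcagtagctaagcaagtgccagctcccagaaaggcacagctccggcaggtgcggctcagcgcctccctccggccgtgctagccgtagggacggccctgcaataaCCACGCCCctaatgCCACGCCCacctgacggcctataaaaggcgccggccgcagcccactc
Zfp42: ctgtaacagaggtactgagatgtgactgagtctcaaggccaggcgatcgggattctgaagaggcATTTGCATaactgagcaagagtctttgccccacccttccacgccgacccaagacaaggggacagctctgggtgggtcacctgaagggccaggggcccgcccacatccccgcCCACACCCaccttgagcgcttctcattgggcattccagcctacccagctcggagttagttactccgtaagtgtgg
No window held the ESRRB motif TCAAGGTCA, its core AAGGTCA, the STAT3 motif TTCCNGGAA, the TCF and LEF motif ATCAAAG or the TFCP2L1 motif, found in 0.423%, 4.72%, 1.15%, 3.73% and 3.44% of all windows in that order. These are matches of letters in short windows and say nothing of binding.

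The naive factors were present at very different levels on day 2. A mean of at least 1 TPM (a level scaled to transcript length and library size) was reached by 7 of the 10, against 71.9% of the 17272 genes tested and 25.5% of all genes. Only 5 of the 10 were at or above 1 TPM in every line, namely *Nanog*, *Klf2*, *Klf5*, *Esrrb* and *Zfp42*. *Zfp42*, also called Rex1, a zinc finger gene widely used as a reporter of the naive state, was highest, with 12.9 ± 3.41 TPM over the 8 lines (SD). *Nanog*, a homeodomain factor, followed with 8.98 ± 2.90 TPM, and *Esrrb*, an orphan nuclear receptor, with 8.67 ± 2.83 TPM. These 3 genes lay at the 69.4th, 63.3rd and 62.6th percentiles of the genes tested.

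The Krüppel-like factors KLF2, KLF4 and KLF5 share binding sites and can replace one another in naive cells. Of these, *Klf2* averaged 6.50 ± 3.12 TPM, *Klf5* 5.83 ± 1.52 TPM and *Klf4* 0.842 ± 0.407 TPM. *Klf4*, the member most directly tied to STAT3, was thus the lowest of these. *Nr0b1*, the X-linked gene of DAX1, a partner of OCT4, averaged 3.99 ± 2.28 TPM, and *Tfcp2l1*, a grainyhead-like factor, 1.81 ± 0.495 TPM. *Tbx3*, a T-box factor, averaged 0.768 ± 0.489 TPM. *Prdm14*, which in naive cells holds down FGF receptor and DNA methyltransferase genes, had 0.0533 ± 0.0340 TPM, which rests on 2 to 12 counts a library.

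Neighbours in this order were compared line by line by a two-sided exact sign-flip permutation test of log2(TPM + 1) over the 8 lines, with adjustment over the 9 neighbouring pairs. The order came from the mean TPM of the same 8 lines, b2 and b1 together. The p-values therefore describe that order and do not test one set beforehand. By this exact permutation test the order held beyond the spread between lines at 3 of the 9 steps, *Nr0b1* above *Tfcp2l1* (7 of 8 lines, adjusted p = 0.0469), *Tfcp2l1* above *Klf4* (8 of 8 lines, adjusted p = 0.0352) and *Tbx3* above *Prdm14* (8 of 8 lines, adjusted p = 0.0352). The other steps did not pass, with adjusted p by exact permutation from 0.0879 for *Klf5* above *Nr0b1* to 0.898 for *Nanog* above *Esrrb*, which held in 4 of 8 lines. The order of *Klf2* and *Klf5* went with the suffix, as the ratio of *Klf2* to *Klf5* in TPM was 1.30 to 3.03 in the 4 b2 lines and 0.456 to 0.740 in the 4 b1 lines, so the order of their means over all 8 lines describes neither set.

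The lines differed in which factor stood high. *Zfp42*, on chromosome 8 (mm10, 43295063 to 43306980, minus strand), had 12.6, 9.66, 15.98 and 12.5 TPM in KO1, KO9, KO15 and KO25, against 13.4, 8.29, 11.5 and 19.0 TPM in WT7, WT12, WT17 and WT34. The highest and the lowest value were both in WT lines, and the KO values lay between them. *Klf5*, on chromosome 14 (mm10, 99298691 to 99315036, plus strand), had 7.32, 5.96, 6.20 and 6.22 TPM in KO1, KO9, KO15 and KO25, against 7.03, 2.37, 5.39 and 6.13 TPM in WT7, WT12, WT17 and WT34. WT12 was far below the other 7 lines, which lay close together. *Tfcp2l1*, on chromosome 1 (mm10, 118627945 to 118685168, plus strand), had 2.22, 1.88, 1.53 and 1.77 TPM in KO1, KO9, KO15 and KO25, against 2.64, 0.933, 1.73 and 1.76 TPM in WT7, WT12, WT17 and WT34. Again WT12 was lowest, and WT7 was highest. *Tbx3*, on chromosome 5 (mm10, 119670669 to 119684724, plus strand), had 0.673, 0.566, 1.01 and 0.454 TPM in KO1, KO9, KO15 and KO25, against 1.14, 0.272, 0.326 and 1.71 TPM in WT7, WT12, WT17 and WT34. The WT lines spread more widely here and enclosed all KO values.

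**Figure D1:**
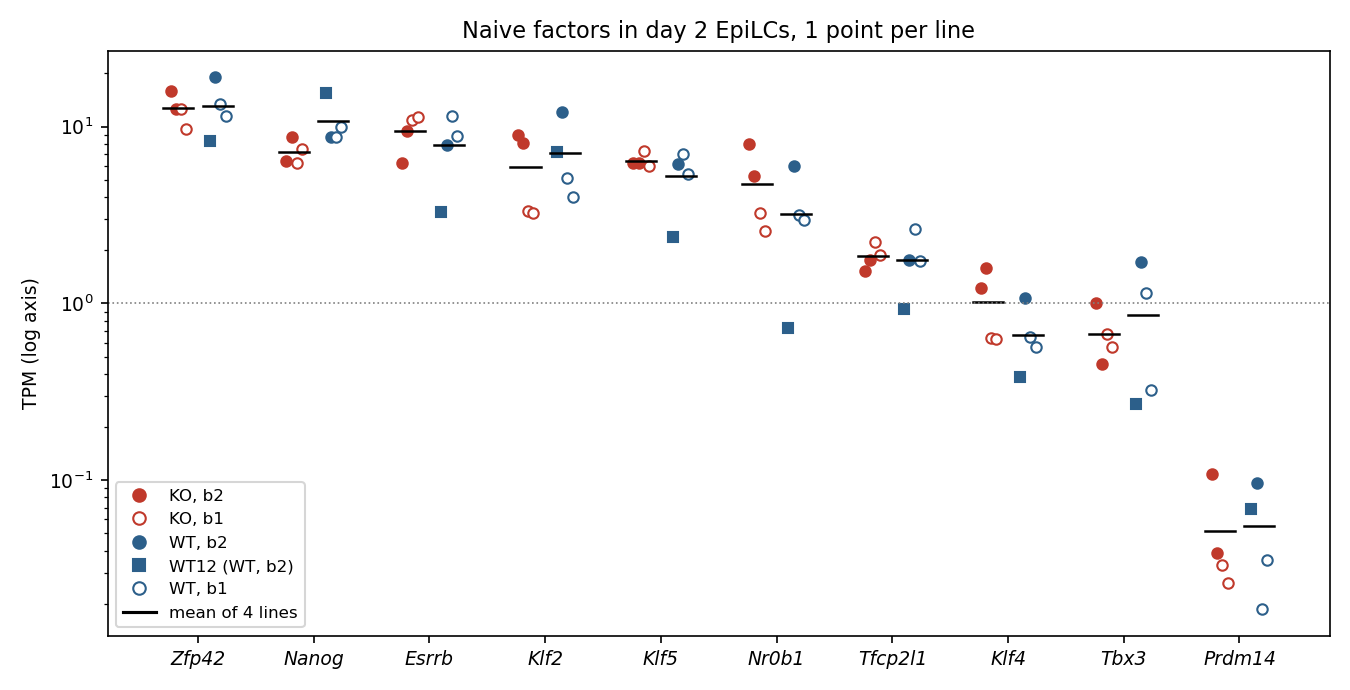
Level of each naive factor in TPM (log axis) in 4 KO lines (left, red) and 4 WT lines (right, blue), with filled points for b2 and open points for b1 libraries, a square for WT12 and a bar for the mean of each group. The means run from 12.9 TPM for *Zfp42* to 0.0533 TPM for *Prdm14*, the dotted line is at 1 TPM, and the square is the lowest WT point for *Zfp42*, *Esrrb*, *Klf5*, *Nr0b1*, *Tfcp2l1*, *Klf4* and *Tbx3*.

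The median level of the naive factors lay between those of the other lists, with no test made. It was 4.91 TPM, compared with 12.6 TPM for 20 other naive genes, 33.4 TPM for 15 regulators of naive exit, 22.6 TPM for 15 formative and primed genes and 77.9 TPM for 7 core pluripotency genes. It was 5.40 TPM for 24 paralogs of the factors, 2.40 TPM for 7 germ cell genes, 0.183 TPM for 12 primitive endoderm markers, 0.147 TPM for 12 fibroblast markers and 0.108 TPM for the two-cell-like markers. *Pou5f1*, which encodes OCT4, averaged 457 ± 30.7 TPM and *Sox2* 33.2 TPM. Among the other naive genes the highest was *Dppa5a*, at 332 TPM. The LIF and STAT3 pathway, which feeds *Klf4* and *Tfcp2l1*, was present in RNA, with 9 of 12 genes at or above 1 TPM and a median of 6.14 TPM.

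**Figure D2:**
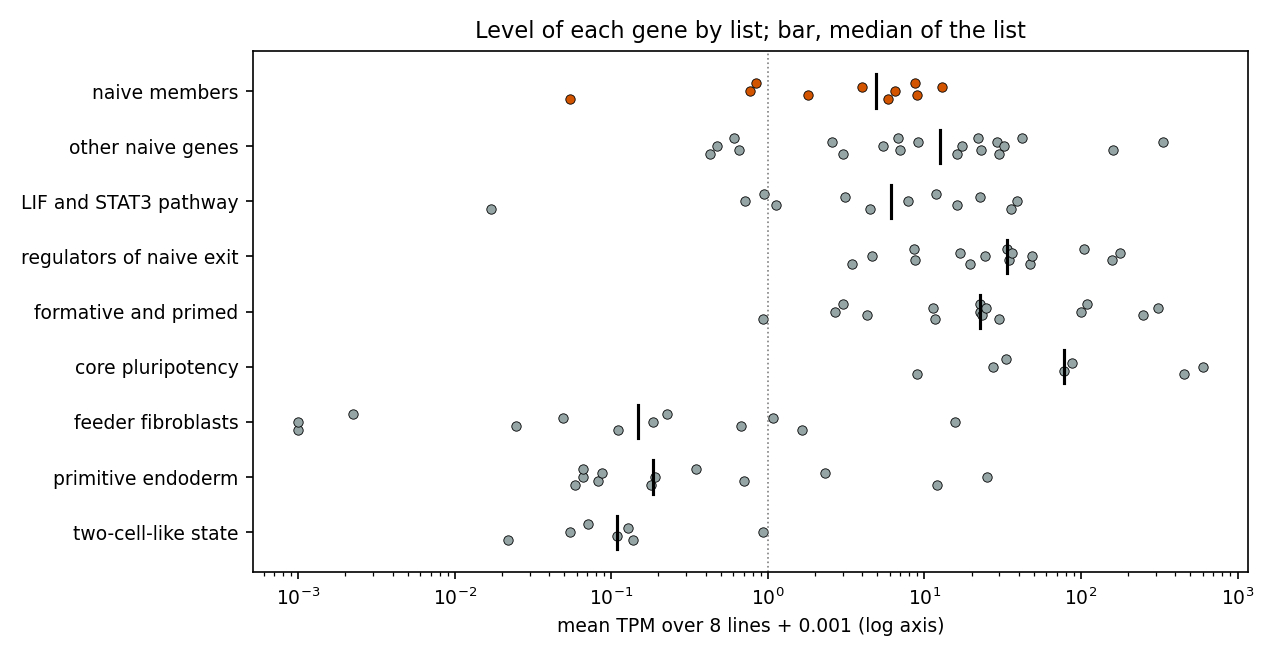
Mean TPM over 8 lines (log axis, with 0.001 added so that 2 fibroblast markers at 0 can be drawn) of each gene, by list, with a bar at the median of each list. The median of the naive factors (orange) is 4.91 TPM, below the lists of formative, core pluripotency and naive exit genes and above those of fibroblast, primitive endoderm and two-cell-like markers.

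The comparison of *Tet1* KO with WT lines asks whether loss of TET1 changed how much of the naive network was left. Of the 9 factors tested, 0 were called by edgeR's quasi-likelihood test with Benjamini-Hochberg adjustment over all genes, where 7 of 17272 genes, 0.0405%, were called. An unadjusted p under 0.05 was found for 1 factor and for 5.62% of all genes tested. DESeq2 called 0 of the 9, and limma on log2(TPM + 1) 0 of the 7 that it tested. The median log2 fold change of the 9 was 0.12, with 6 positive and 3 negative (49% of all genes were positive), beside -0.0044 over all genes tested, and the median size of change was 0.26 beside 0.13.

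The one factor with a small unadjusted p was *Nanog*, on chromosome 6 (mm10, 122707489 to 122714633, plus strand). It had 6.27, 7.46, 6.42 and 8.70 TPM in KO1, KO9, KO15 and KO25, against 8.79, 15.4, 9.99 and 8.78 TPM in WT7, WT12, WT17 and WT34. Every KO line lay below every WT line, KO25 by a narrow margin and WT12 far above the other WT lines. Such a separation with KO lower was seen in 1.8% of all genes tested. The log2 fold change was -0.55 (SE 0.19, 95% interval -0.97 to -0.13) with 0.751 as the adjusted p in edgeR, and this value over 18 alternatives ran from 0.239 to 1.00. Within b2 libraries the log2 fold change was -0.64 and within b1 libraries -0.43, and without WT12 it was -0.34.

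The other 8 factors gave intervals that held 0. *Nr0b1*, on chromosome X (mm10, 86191764 to 86195947, plus strand), had the largest of these log2 fold changes, 0.57 (SE 0.56, 95% interval -0.68 to 1.82), with 3.26, 2.57, 7.96 and 5.24 TPM in KO1, KO9, KO15 and KO25, against 3.15, 0.729, 2.98 and 6.02 TPM in WT7, WT12, WT17 and WT34. The KO and WT values overlapped, and leaving out 1 line moved the log2 fold change between 0.20 (without KO15) and 1.07 (without WT34), with 0.22 without WT12. *Esrrb* had a log2 fold change of 0.17 (95% interval -0.63 to 0.98), or -0.10 without WT12 and 0.45 without WT7. *Tfcp2l1* had 0.10 (95% interval -0.54 to 0.74), or -0.12 without WT12 and 0.41 without WT7. *Klf5* had 0.30 (95% interval -0.36 to 0.95), or 0.04 without WT12 and 0.50 without WT7. *Klf4* had 0.45 (95% interval -0.48 to 1.38), or 0.15 without KO25 and 0.78 without WT34. *Klf2* had -0.26 (95% interval -1.19 to 0.67), or -0.55 without KO15 and 0.14 without WT34, and *Zfp42* -0.04 (95% interval -0.62 to 0.54), or -0.22 without WT12 and 0.23 without WT34. *Tbx3* had 0.12 (95% interval -0.69 to 0.93), or -0.10 without WT12 and 0.38 without WT34. The sign thus turned on 1 line for *Esrrb*, *Tfcp2l1*, *Klf2*, *Zfp42* and *Tbx3*. These fits had no suffix term, so leaving out a line also unbalanced b2 and b1 between KO and WT. With the suffix as a term the log2 fold change of *Klf2* was -0.30 (95% interval -0.71 to 0.11). It was negative for *Klf2* within b2 (-0.17) and within b1 (-0.43) as well. Each of the 8 intervals reached beyond 0.5 on the log2 scale in at least one direction, so these lines do not show that the levels were alike. Of 11 primitive endoderm markers tested 1 was called, beside 0.0405% of all genes tested. It was *Col4a1*, which was higher in KO lines (log2 fold change 1.06, adjusted p = 0.00699 from edgeR). Of the 11, 8 were positive, with a median log2 fold change of 0.45 beside -0.0044 over all genes tested. An unadjusted p under 0.05 from edgeR was found for 4 of the 11, beside 5.62% of all genes tested. The summed level of that list, most of it *Sparc* and *Col4a1*, did not overlap between KO and WT lines. Only 3 of its 12 genes had a mean of at least 1 TPM, and *Sox17* and *Gata6* did not. Whether primitive endoderm cells had a part in the values of the factors was not tested.

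**Figure D3:**
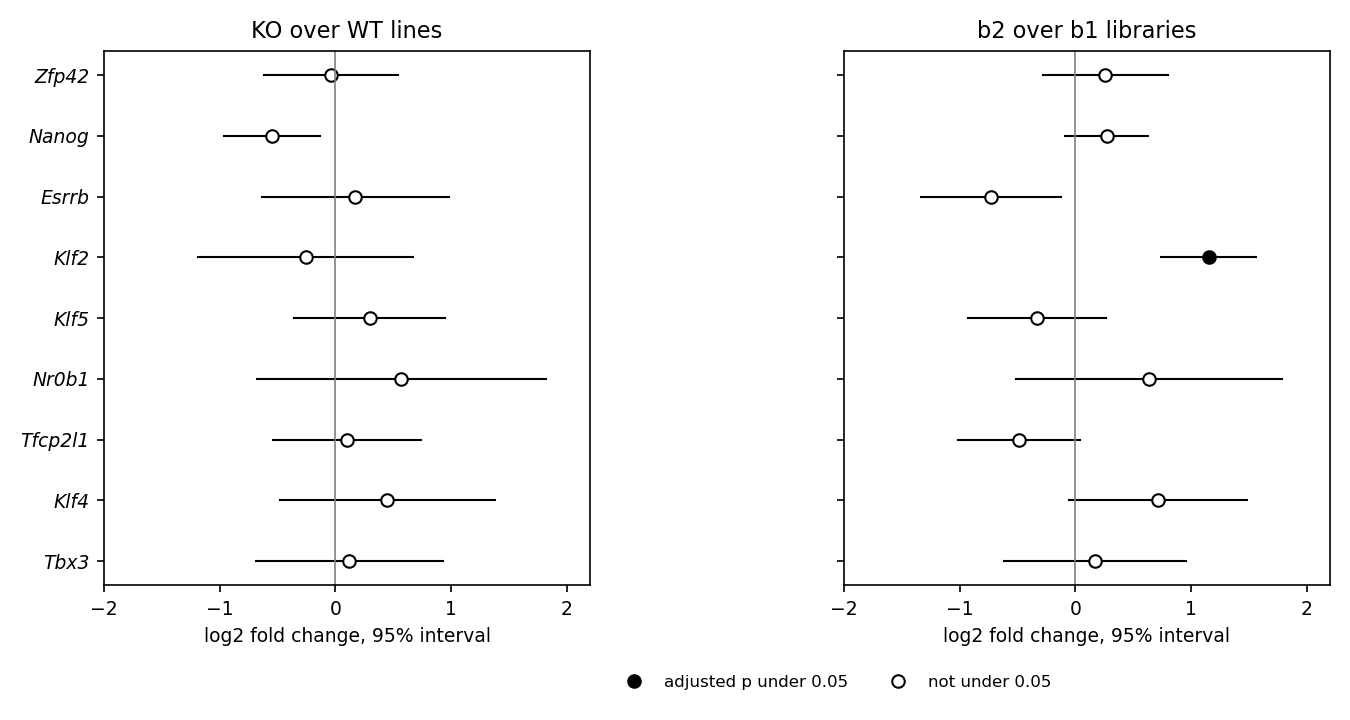
Log2 fold change (points) with its 95% interval (lines) from edgeR for the 9 factors tested, KO over WT lines (left) and b2 over b1 libraries (right), with filled points for an adjusted p under 0.05. The only filled point is *Klf2* at 1.15 in b2 over b1, and the interval of *Nanog* in KO over WT runs from -0.97 to -0.13.

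The second comparison set the 4 b2 libraries against the 4 b1 libraries, each with 2 KO and 2 WT lines, in a fit with genotype as a term. Of the 9 factors 1 was called, *Klf2*, which was higher in b2. The share called was 24.6% of all genes tested and 13.7% in the higher direction, so 1 of 9 is no more than the background. An unadjusted p under 0.05 was found for 2 factors and for 37.8% of all genes. The median log2 fold change of the 9 factors was 0.26, with 6 positive (51% of all genes were positive), beside 0.01 over all genes.

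*Klf2*, on chromosome 8 (mm10, 72319033 to 72321656, plus strand), had 8.95, 8.08, 7.16 and 12.0 TPM in the b2 lines KO15, KO25, WT12 and WT34, against 3.34, 3.26, 5.15 and 3.99 TPM in the b1 lines KO1, KO9, WT7 and WT17. Every b2 library was above every b1 library in both genotypes, with WT34 the highest and the b1 KO lines the lowest. The log2 fold change was 1.15 (SE 0.18, 95% interval 0.74 to 1.56), a fold of 2.22, with an adjusted p of 0.00246 from edgeR. It was called in 17 of 18 alternatives, and in the WT lines alone the log2 fold change was 1.02 with an adjusted p of 0.148. *Prdm14* did not overlap in CPM either, with 12, 3, 9 and 8 counts in the same b2 lines and 4, 3, 2 and 4 counts in the b1 lines, or 0.219 to 0.623 CPM and 0.110 to 0.188 CPM. Its counts did overlap, at 3 in KO25 and up to 4 in b1 lines. Among genes tested, 13.9% had no overlap in CPM in this direction.

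*Esrrb*, on chromosome 12 (mm10, 86361117 to 86521628, plus strand), leaned the other way. It had 6.20, 9.47, 3.31 and 7.84 TPM in the b2 lines KO15, KO25, WT12 and WT34, against 10.9, 11.4, 11.5 and 8.85 TPM in the b1 lines KO1, KO9, WT7 and WT17. Only KO25 of the b2 lines reached into the b1 range. The log2 fold change was -0.73 (SE 0.27, 95% interval -1.34 to -0.13), with an adjusted p of 0.0761 from edgeR. It was past the threshold in 5 of 18 alternatives. In edgeR the adjusted p was 0.0485 for library size alone in place of TMM, 0.0468 without KO25, 0.0451 without WT12 and 0.0437 without WT34. With no filter on low counts it was 7.1e-15, where the log2 fold change was -0.76 and the SE 0.09. There the SE changed far more than the estimate. The ratio of *Klf2* to *Esrrb* in TPM was 1.44, 0.853, 2.16 and 1.54 in the b2 lines and 0.307, 0.287, 0.449 and 0.451 in the b1 lines, without overlap. These 2 genes had the highest and the lowest log2 fold change of the factors tested. *Klf2* alone did not overlap either, so the ratio is no separate evidence. *Tfcp2l1* (log2 fold change -0.48, adjusted p = 0.163 from edgeR) and *Klf5* (-0.33, adjusted p = 0.401) were also lower in the b2 mean without passing.

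One library decided the outcome for several other factors. *Klf4*, on chromosome 4 (mm10, 55527143 to 55532466, minus strand), had 1.23, 1.58, 0.381 and 1.07 TPM in the b2 lines KO15, KO25, WT12 and WT34, against 0.634, 0.628, 0.650 and 0.568 TPM in the b1 lines KO1, KO9, WT7 and WT17. All b2 lines but WT12 were above every b1 line. The log2 fold change was 0.71 with an adjusted p of 0.160 from edgeR, without WT12 it was 1.04 with an adjusted p of 0.00506, and without WT34 it was 0.49. *Nr0b1* showed the same arrangement, at 7.96, 5.24, 0.729 and 6.02 TPM in the b2 lines, against 3.26, 2.57, 3.15 and 2.98 TPM in the b1 lines. Its log2 fold change was 0.64 (adjusted p = 0.399 from edgeR) with all lines, 1.07 (adjusted p = 0.00175) without WT12 and 0.12 without WT34. For *Zfp42* the log2 fold change was 0.26 (adjusted p = 0.473 in edgeR) with all lines, 0.47 (adjusted p = 0.0321) without WT12 and -0.02 without WT34. Without WT12, edgeR called 5 of the 9 factors, *Klf2*, *Klf4*, *Nr0b1* and *Zfp42* higher and *Esrrb* lower in b2, where the share of all genes called was 27.3%, and 14.1% in the higher direction. WT12 is a b2 line and was the lowest line for *Klf4*, *Nr0b1*, *Zfp42* and *Esrrb*. Leaving it out therefore raises their b2 means, and 5 of 9 cannot be weighed against the share of all genes. *Nanog*, with a log2 fold change of 0.27 (adjusted p = 0.246 from edgeR), and *Tbx3*, with 0.17 (adjusted p = 0.766), were not called in any of the alternatives. The summed fibroblast markers, most of it *Thy1*, were lower in b2 than in b1 libraries without overlap. The markers did not share this direction, as 3 of the 6 tested leaned higher and 3 lower in b2. Their median log2 fold change was 0.02, and 1 was called, lower in b2, beside 24.6% of all genes called. Whether fibroblasts had a part in these values was not tested.

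Whether the KO effect differed between b2 and b1 was tested as an interaction term. None of the 9 factors was called (0 of 17272 genes, 0%, by edgeR with Benjamini-Hochberg adjustment), and 0 of the 9 had an unadjusted p under 0.05, compared with 227 of all genes, 1.31%. Estimates were positive for 8 of the 9, and for 50.9% of all genes, but this rested on WT12. Without WT12 they were negative for *Klf2* (-0.12), *Klf5* (-0.15), *Esrrb* (-0.02), *Tfcp2l1* (-0.10), *Zfp42* (-0.32) and *Tbx3* (-0.30). They were then positive for *Nanog* (0.18), *Klf4* (0.33) and *Nr0b1* (0.13). DESeq2 and limma called 0 factors as well, and 2 and 31 of all genes. The largest estimate was that of *Nr0b1*, at 1.02 on the log2 scale (95% interval -1.29 to 3.34), with a KO effect of 0.99 within b2 and -0.04 within b1. It was 0.13 without WT12 and 3.29 without WT34 (adjusted p = 0.0502 from edgeR), so the estimate depended on which WT line stood for b2. With 2 lines of each genotype in each suffix, intervals of this width leave the question undecided.

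WT12 stood out among the 8 lines. In CPM, WT12 was the lowest of the 8 lines for 7 of the 10 factors, *Klf4*, *Klf5*, *Esrrb*, *Tfcp2l1*, *Zfp42*, *Tbx3* and *Nr0b1*, and the highest for *Nanog*. Over all genes tested WT12 was the lowest line in 15.9% and the highest in 16.5%. Relative to the median of the other 7 lines, its log2 ratio in TPM was -2.16 for *Nr0b1*, -1.52 for *Esrrb*, -1.39 for *Klf5*, -1.31 for *Tbx3* and -0.92 for *Tfcp2l1*. It was 0.83 for *Nanog* and 0.48 for *Klf2*. The *Nanog* to *Esrrb* ratio in TPM was therefore 4.65 in WT12, while it lay between 0.577 and 1.13 in the other 7 lines.

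The same line was ranked in TPM in the other pluripotency lists, with no test made. The shares over all genes tested, 15.9% lowest and 16.5% highest, are in CPM, and no share in TPM is given here. Of 16 other naive genes with a mean of at least 1 TPM, WT12 was the lowest line in 7 and the highest in 0, and of 14 formative and primed genes it was the lowest in 0 and the highest in 4, among them *Fgf5* with 18.8 TPM and *Pou2f2* with 5.62 TPM. Of 7 core pluripotency genes WT12 was the lowest line in 3, among them *Sox2* with 25.2 TPM, and the highest in 1, *Pou5f1* with 512 TPM. The numbers were 3 lowest and 3 highest of 15 regulators of naive exit, and 2 lowest and 2 highest of 9 genes of the LIF and STAT3 pathway. Its summed TPM of two-cell-like markers, 5.61, was the highest, against 0.0888 to 2.99 in the other lines, and the part of such cells in the values of WT12 was not tested. WT34 was the highest line for 3 factors, *Klf2*, *Zfp42* and *Tbx3*, and for 13.3% of all genes tested, with 1.71 TPM of *Tbx3* against 0.272 TPM in WT12. The spread between the highest and the lowest line was 2.29-fold for *Zfp42* and 10.9-fold for *Nr0b1*.

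**Figure D4:**
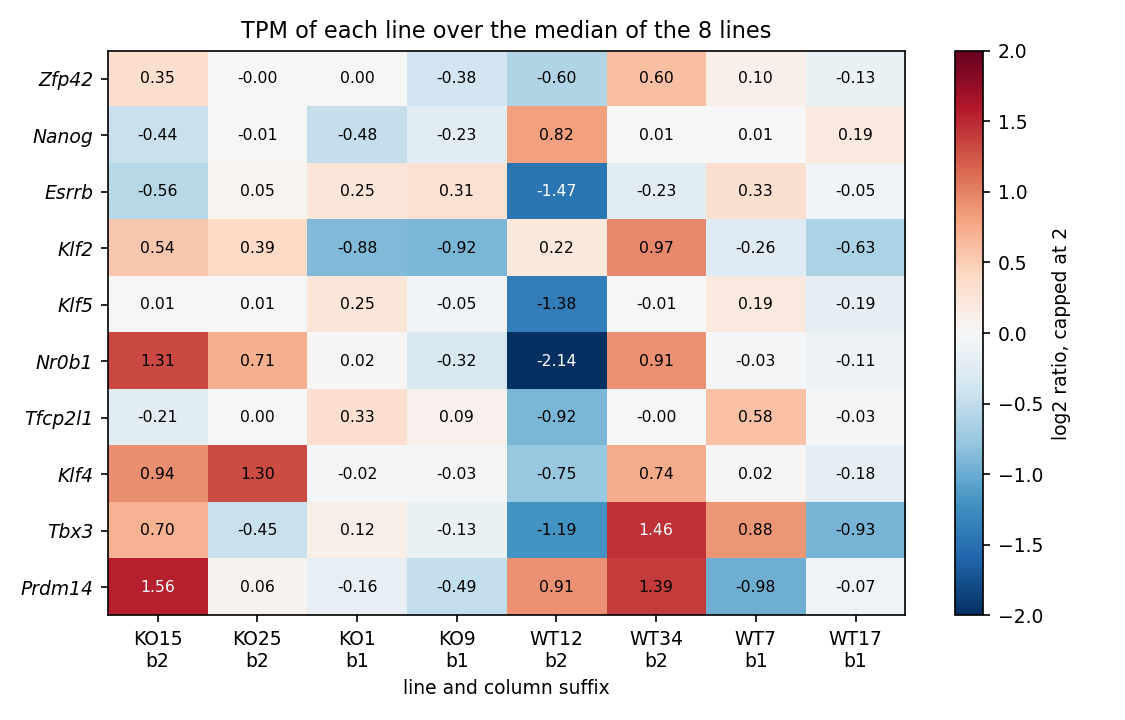
Log2 ratio of the TPM of each line to the median of the 8 lines, for each naive factor (rows) and each line with its column suffix (columns, KO lines left, WT lines right). The WT12 column is the darkest blue, at -2.14 for *Nr0b1* and -1.47 for *Esrrb*, and is red for *Nanog* at 0.82, while the *Klf2* row is red in every b2 line and blue in every b1 line.

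Covariation was measured as the correlation of log2 CPM over the 8 lines after the mean of each suffix had been removed, since the libraries fell apart by suffix. All 28 pairs of factors without *Nanog* were positively correlated, with a median Pearson r of 0.84 and a range of 0.48 to 0.96. All 8 pairs with *Nanog* were negative, with a median of -0.66 and a range of -0.84 to -0.13. The difference between KO and WT stayed in these values. With genotype means removed as well, *Nanog* with *Klf2* moved from -0.13 to -0.84 and *Nanog* with *Esrrb* from -0.62 to -0.58, with no test made. By two-sided exact permutation of lines within suffix, 15 of the 36 pairs had an unadjusted p under 0.05, and 0 passed Benjamini-Hochberg adjustment over the 36. The strongest by permutation was *Esrrb* with *Tfcp2l1* (r = 0.91, exact permutation p = 0.00347, adjusted p = 0.0817; rho = 0.90, exact permutation p = 0.00521, adjusted p = 0.131). Leaving out KO25 and WT12, the lines farthest from the *Esrrb* median, gave r = 0.91 for this pair.

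Without WT12, 24 of the 28 pairs stayed positive with a median r of 0.50, and of the 8 pairs with *Nanog* 3 were negative with a median of 0.03. Pairs that kept a high r were *Klf5* with *Tfcp2l1* (0.90), *Klf2* with *Zfp42* (0.82) and *Esrrb* with *Tfcp2l1* (0.75). *Esrrb* and *Nr0b1*, at 0.85 with all lines, had an r of -0.53 without WT12.

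**Figure D5:**
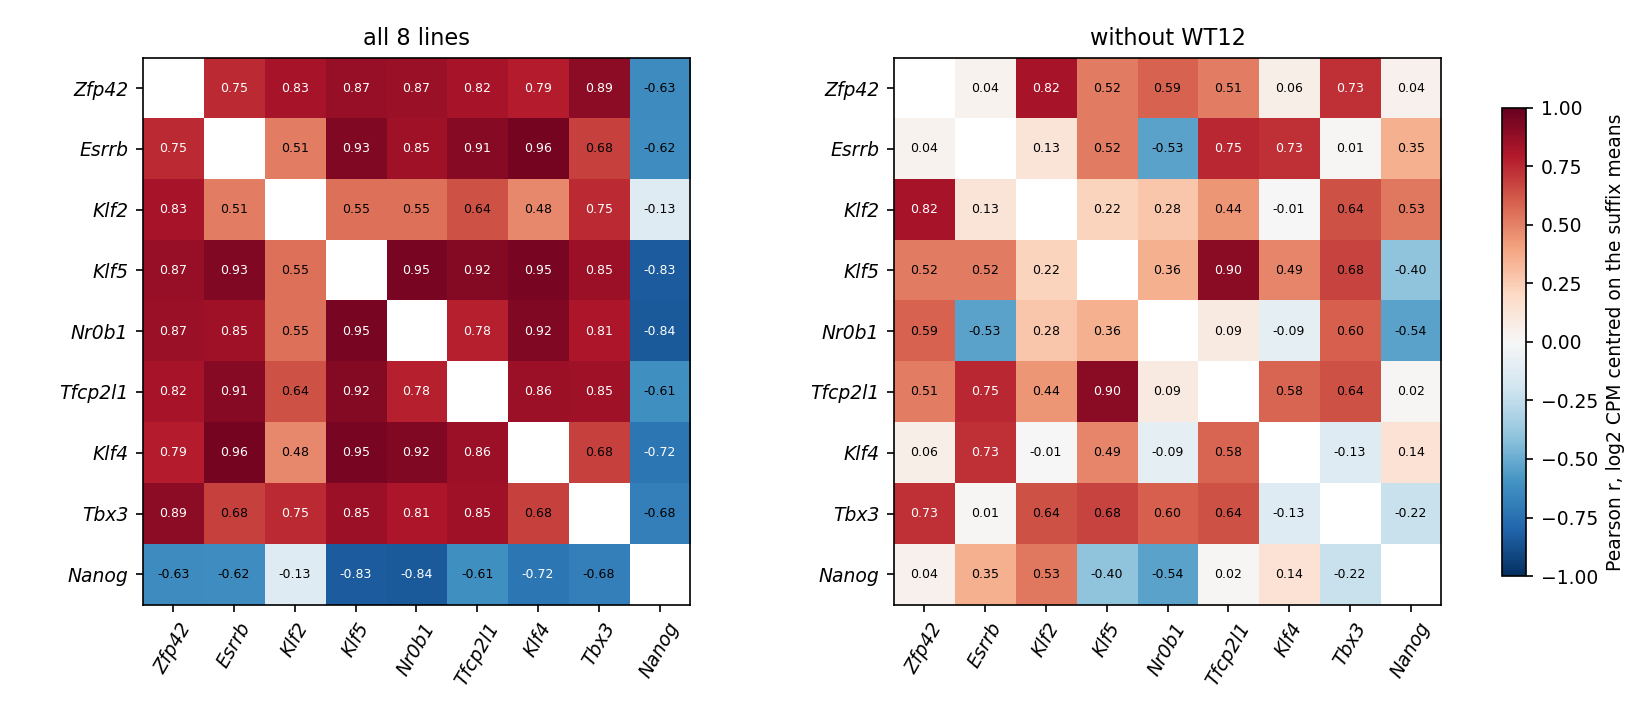
Pearson r between naive factors across lines, on log2 CPM centred on the suffix means, with all 8 lines (left) and without WT12 (right). With all lines the *Nanog* row is blue throughout and the other cells are red, with medians of -0.66 and 0.84, and without WT12 these medians are 0.03 and 0.50.

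Among 10456 other genes with a mean of at least 1 TPM, those most like each factor by the same r were also read, as a description over 8 lines that share the WT12 extreme. *Nanog* was nearest to *Dtx1* (r = 0.996) and *Fkbp2* (0.989), and *Esrrb* to *Mid1* (0.998) and *Zbtb8a* (0.993). *Klf5* was nearest to *Dnmt3l* (0.994), the cofactor of the de novo DNA methyltransferases, and to *Mtss1* (0.991). For *Klf2* the nearest were *Tbce* (0.983) and *Cnot3* (0.980), for *Tfcp2l1* *Dnd1* (0.994) and *Rusc2* (0.975), for *Zfp42* *Ube3a* (0.992) and *Zfp532* (0.986), and for *Nr0b1* *Trim33* (0.994) and *Selenop* (0.991). Genes this near were found for each of the 7 factors with a mean of at least 1 TPM.

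The genes around the network were read from the same fits. Between KO and WT lines, 0 of 19 other naive genes tested, 0 of 11 genes of the LIF and STAT3 pathway, 0 of 15 regulators of naive exit, 0 of 7 core pluripotency genes and 0 of 15 formative and primed genes were called by edgeR. By unadjusted p under 0.05 these counts were 0, 1, 0, 0 and 1, the 2 genes being *Socs3*, the feedback inhibitor of STAT3 signalling (log2 fold change 0.50), and *Slc7a3* (0.32). Their median log2 fold changes were -0.01, 0.06, 0.01, 0.09 and 0.01, in the same order.

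Between b2 and b1 libraries many of these genes were called, as were 24.6% of all genes. Of the 19 other naive genes 5 were higher and 3 lower in b2, led by *Zscan10* (log2 fold change 1.08, adjusted p = 0.000111 from edgeR) and *Sall1* (0.64, adjusted p = 0.000447). Of the 15 formative and primed genes 8 were higher and 1 lower, with a median of 0.56 and 14 of 15 positive, among them *Zic5* (1.08), *Zic2* (0.79), *Fgf5* (0.64) and *Pou3f1* (0.89). Of the 15 regulators of naive exit 5 were higher and 3 lower. These included *Foxd3*, a forkhead repressor active in the exit, with 22.4 to 52.9 CPM in b2 and 2.58 to 5.13 CPM in b1 libraries (log2 fold change 3.13, adjusted p = 0.000123 from edgeR), and *Tfe3* (0.74), which encodes a factor that sustains *Esrrb* in naive cells. *Dusp6*, a feedback phosphatase of ERK signalling, was lower (-0.83). In the LIF and STAT3 pathway *Pim1* (-0.66) and *Pim3* (-0.60), known STAT3 targets, were lower in b2, and *Lif* (1.02) was higher. The difference between the lists in the share called was not tested.

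Among paralogs of the factors, 12 of the 20 tested were called between b2 and b1 (9 higher and 3 lower in b2), compared with 24.6% of all genes and with no test of the difference, and 0 were called between KO and WT, also by unadjusted p under 0.05. *Klf13* was higher, with 161 to 218 CPM in b2 and 58.3 to 100 CPM in b1 libraries (adjusted p = 7.45e-05 from edgeR), and *Klf15* (log2 fold change -1.61) and *Klf10* (-1.15) were lower. *Klf3*, at 51.2 TPM, and *Klf9*, at 13.6 TPM, were among the family members with means above those of *Klf2*, *Klf4* and *Klf5*. *Esrra* and *Tfcp2*, paralogs of *Esrrb* and *Tfcp2l1*, averaged 7.07 and 5.34 TPM. *Prdm1*, a relative of *Prdm14* and a germ cell gene, was at 0.273 TPM.

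Copies of 2 factors elsewhere in the genome could take or lend reads. *Nanog-ps1*, a processed pseudogene on chromosome X, shared 103 of its 220 distinct words of 31 bases with *Nanog* transcripts, and *Zfp42-ps1*, on chromosome 15, shared 255 of its 460 with *Zfp42*. Of the words of *Nanog* transcripts 10.7% also occurred in transcripts of other genes, and of *Zfp42* 13.4%, while for the other 8 factors the share was 0% to 2.53%. *Nanog-ps1* had 10 to 12 counts in KO lines, against 28 to 68 counts in WT lines, without overlap, and *Nanog* had 517 to 644 counts in KO lines, against 551 to 1538 counts in WT lines. The log2 fold change of *Nanog-ps1*, -1.74 (adjusted p = 0.204 from edgeR), had the sign of that of *Nanog*. *Zfp42-ps1* had 46 to 85 counts in KO and 67 to 89 counts in WT lines (log2 fold change -0.21). *Tbx3os1*, antisense to *Tbx3*, had at most 5 counts. The ratio of CPM to TPM, which reflects the length of the transcripts to which reads were assigned, varied 2.22-fold between lines for *Tbx3* and 1.08-fold to 1.38-fold for the other factors, so the *Tbx3* levels in TPM carry an added uncertainty.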

How the data were processed

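RNA-seq of 8 EpiLC lines was used, 1 library a line. Per the study's methods and labels, RNA was made into stranded polyA libraries and sequenced as single-end 50-base reads. Reads were trimmed with Trim Galore 0.6.4 and assigned to transcripts with Salmon 0.14.1 against GENCODE release 23 (mm10). The authors summed Salmon's estimates to genes with tximport and deposited them as estimated counts, of which 27.8% were not whole and were rounded here. The authors also deposited TPM per gene from the same runs, scaled for transcript length and library size. The study used DESeq2 1.30.0 and R 4.0.2.

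Groups came from the library titles and the b1 and b2 suffixes from the column names. Genes passing filterByExpr by genotype (17272 of 54281) were tested with edgeR 4.0.16 in R 4.3.3, with TMM scaling, the quasi-likelihood test and Benjamini-Hochberg adjustment at 0.05 over all genes. KO was set against WT without covariates, b2 against b1 with genotype as a term, and the interaction was fitted with both terms. Library totals ran from 13916576 to 23680839 counts, and of the factors *Prdm14* alone had too few counts to be tested. TPM levels were compared by exact sign-flip permutation and pairs of factors by exact permutation of lines within suffix, on log2 CPM with a prior count of 2.

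Alternatives were DESeq2 1.42.0, limma 3.58.1 on log2(TPM + 1) and log2(TPM + 0.1), other scalings and filters, a suffix term, b2 or b1 libraries, or KO or WT lines, alone, and each line left out. Scripts were tested on simulated data. Positions come from GENCODE M21, which held 53544 of the gene IDs, and sequences from RefSeq on GRCm38.p6.

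The factors and lists were chosen with earlier results of these data known. Genes named are the 10 factors, *Tet1*, up to 4 genes of each other list with the smallest p in each of the 2 contrasts, EpiLC markers, paralogs and near copies, and the 2 genes most like each factor with a mean of at least 1 TPM. *Dppa5a*, and the markers given for fibroblasts and primitive endoderm outside that rule, were chosen after their values were seen. Protein data were not used here.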

Additional observations from a re-analysis of the deposited data

Results flagged for a closer look

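Among 20 groups of 4 lines, the KO and the WT lines for each of the 10 factors, 4 had a line whose gap to the others passed Dixon's 95% critical value for groups of 4. Chance alone is expected to mark about 1 in 20 groups. *Nanog* had 64.1 CPM in WT12, against 39.0 to 40.5 CPM in the other WT lines. *Klf5* had 53.4 CPM in KO1, against 44.3 to 45.4 CPM in the other KO lines. KO15 stood apart for *Tbx3*, with 8.51 CPM against 5.03 to 5.56 CPM, and for *Prdm14*, with 0.623 CPM against 0.150 to 0.219 CPM, which is 12 counts against 3 to 4. The low WT12 values of *Nr0b1*, *Esrrb* and *Klf5* did not pass this criterion within the WT lines.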

How the results depend on the processing

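No factor was called between KO and WT under any of the alternatives run. The number of genes called between KO and WT, 7, was 106 with DESeq2, 2 and 4 with limma on log2(TPM + 1) and log2(TPM + 0.1), 28 with the suffix as a term, 19 in b1 libraries alone, and 6 to 10 when a line was left out. Between b2 and b1 the 4253 genes called became 1395 and 1321 with the same limma fits, 1014 in KO lines alone and 271 in WT lines alone, and 2655 (without KO9) to 4807 (without WT12) when a line was left out. With library size alone in place of TMM, 1933 of 4444 called genes were higher, against 2359 of 4253. The 1 factor called between b2 and b1 became 2 with library size alone, 6 with no filter on low counts, 3 in KO lines alone and 0 in WT lines alone, and 1 to 5 when a line was left out, with 5 without WT12. The cause of these shifts was not tested, beyond the smaller number of lines in the fits within a genotype. *Tet1* kept its direction under limma without passing. The interaction alternatives were chosen after seeing the data, and none called a factor. The number of factors at or above the level threshold was 9 at 0.5 TPM and 5 at 5 TPM. No paired analysis was possible because the sources used here do not say which KO and WT lines form a littermate pair, and their names share no number. Depth kept only *Prdm14*, at 2 to 12 counts, out of the edgeR test. *Klf4*, at 62 to 151 counts, and *Tbx3*, at 69 to 164 counts, averaged below 1 TPM and were not tested by limma. WT12 was the deepest library, at 23680839 counts, and KO25 the shallowest, at 13916576. Whether depth had a part in the values of WT12 was not tested.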
